A study of Marchantia polymorpha and Klebsormidium nitens with 56 samples.

Results

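BC3 is a female wild-type accession of the liverwort *Marchantia polymorpha*, and the transcripts of its gemmalings after 5 h at 37 °C were compared with those of unheated controls. The comparison was chosen by title, as the libraries of the second *M. polymorpha* experiment labelled BC3 heat 5 h and BC3 control. It takes 4 libraries, 2 of each, of the 18 libraries in the same count table and the 56 samples of the series. All groups used here were wild-type gemmalings 7 days old. Gemmalings are young plants grown from gemmae, small buds by which the liverwort propagates without sex. They had grown in continuous light at 22 °C in half-strength Gamborg B5 medium. BC3, the male accession Tak-1 and the female accession Tak-2 were each held at 37 °C for 0, 1 or 5 h, with 2 biological replicates per group as the design text calls them. RNA came from whole gemmalings, so fewer cells of a type and less RNA per cell cannot be told apart.

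In plants, heat unfolds proteins, and heat shock transcription factors of the HSF family then switch on genes of heat shock proteins. These proteins are chaperones that hold or refold damaged proteins. Many growth genes are turned down over the same hours. A liverwort gemmaling is haploid, so each gene outside a duplicated family is present as a single copy per genome, and sex is set by a female or a male sex chromosome.

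The table lists 19755 identifiers such as Mapoly0076s0003.1, called genes below, and the sources used here pair none of them with a name. Chaperone, growth or tissue marker genes were therefore not picked out, the tissue label was not checked against markers, and no gene is given a function. Levels are in counts per 1000000 reads (CPM), scaled by library total and by a composition factor. They were not divided by gene length, so a level is compared between libraries and not between genes. A log2 change of 1 is a 2-fold change. Tests used edgeR's quasi-likelihood test over 10832 genes with enough reads, and a gene passed at a Benjamini-Hochberg adjusted p under 0.05. An exact permutation test of 2 libraries against 2 cannot give a p under 0.333, so no single value was tested that way.

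The BC3 libraries held 15.2 and 18.4 M reads in the controls, 16.9 and 21.5 M after 1 h and 15.1 and 18.6 M after 5 h. All 18 libraries held 15.1 to 21.5 M. Log2 levels correlated across genes at r = 0.993 between the 5 h libraries, which describes the libraries and is no test. Between replicates, the chi-square of the counts over its degrees of freedom was 3.67 at 5 h, 12.4 in the controls and 2.11 at 1 h, where counting error by itself gives a value near 1. The labels of 3 unheated libraries of the other accessions went against their reads. The 113 identifiers that begin with MapolyY held 6 to 20 reads in each BC3 library and 7244 to 13907 in each heated Tak-1 library. They held 16838 reads in the library labelled Tak-2 control replicate 1 and 23 in the library labelled Tak-1 control replicate 2. A set of 19 genes had at least 20 reads in every BC3 and heated Tak-2 library and at most 4 over the 4 heated Tak-1 libraries together. Those 19 held 14283 reads in the library labelled Tak-1 control replicate 2, 8873 in that labelled Tak-1 control replicate 1 and 6 in that labelled Tak-2 control replicate 1. The library labelled Tak-1 control replicate 1 also held 7158 MapolyY reads, so it carried both kinds. No label was changed. The comparisons within BC3 draw on these libraries through the shared estimate of spread, and the comparisons with the Tak accessions draw on them directly.

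After 5 h at 37 °C most of the measured transcriptome of BC3 had changed, and the changes were largest upward. Of 10832 genes, 3786 were higher (35.0%) and 3582 lower (33.1%), 68.0% in all. At least 2-fold rises were found for 1652 genes (15.3%) and falls for 1479 (13.7%). Large rises outnumbered large falls, with 203 genes up and 68 down at least 16-fold, and 75 up and 13 down at least 64-fold. The median change of the genes that passed was 0.86 upward and -0.84 downward (log2). Both 5 h libraries lay above both controls for 4541 genes (41.9% of those tested) and below both for 4450 (41.1%), and 3783 and 3577 of these passed. The split into higher and lower rests on the scaling. With library totals alone the median of all genes moved to -0.40, with 2221 higher and 5441 lower, and 210 calls changed sign, and with upper-quartile scaling it moved to -0.12, with 3232 and 4178. Without the 3 doubtful libraries 3957 were higher and 3857 lower, and of the 19 genes missing from heated Tak-1, 2 were then higher and 10 lower, against 0 passing with them by edgeR or DESeq2 and 0 at an unadjusted p under 0.05.

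**Figure D1:**
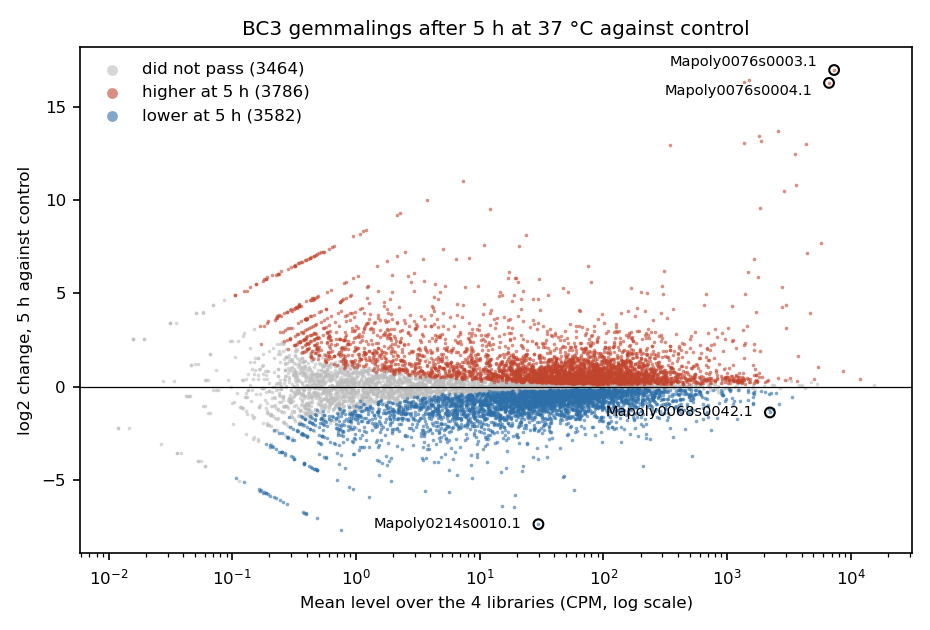
Log2 change of each tested gene in BC3, 5 h against control (vertical), by its mean level over the 4 libraries in CPM on a log axis (horizontal). Red points are the 3786 genes that were higher, blue points the 3582 that were lower and grey points those that did not pass, and the 4 ringed genes are the ones named in the text.

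Of the 10832 tested genes, 1725 had a control mean under 1 CPM in BC3. At least 2-fold, 577 of these were higher (33.4%) and 128 lower (7.42%) at 5 h. Such genes can pass the filter on reads through other libraries, such as heated ones, so the counts below are descriptions. In 9 genes the level went from a control mean under 1 CPM to at least 100 CPM at 5 h, and in 8 of these to at least 1000 CPM. In 22 of the 10832 tested genes there were 0 reads in both controls and at least 10 in each 5 h library. Their levels at 5 h were 0.738 to 14.7 CPM (median 1.14), and against a floor of 3 reads per control library the median was at least 7.14-fold higher and the highest at least 92.1-fold higher. The reverse, 0 reads in both 5 h libraries and at least 10 in each control, held for 5 genes, with a median at least 3.75-fold lower.

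Among genes with a mean of at least 5 CPM whose 5 h and control libraries did not overlap, Mapoly0076s0003.1 had the largest rise. It had 1 and 3 reads in the controls (0.0584 and 0.144 CPM). After 1 h it stood at 3324 and 3232 CPM and after 5 h at 14549 and 14811 CPM. All heated libraries lay far above both controls, and both 5 h libraries above both 1 h libraries. The log2 change at 5 h was 16.995 ± 0.72 (SE, adjusted p = 8.69e-19). The fitted size rests on those few control reads, and was 16.57 without control replicate 1 and 17.76 without control replicate 2. The ratio of reads was 139543 with a 95% counting interval of 54500 to 512151. From 1 to 5 h it rose further by a log2 of 2.16 ± 0.08 (adjusted p = 6.38e-11). At 5 h this 1 gene took 1.25 and 1.26% of all reads of the libraries.

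Mapoly0076s0004.1, the following identifier, had the next largest gain in CPM. Its controls had 4 and 2 reads (0.234 and 0.0959 CPM), with the 1 h libraries at 4050 and 3974 CPM and the 5 h libraries at 13693 and 13012 CPM. Its order of groups was the same as for Mapoly0076s0003.1, with no overlap. The log2 change at 5 h was 16.30 ± 0.62 (SE, adjusted p = 8.98e-18), and 16.98 without control replicate 1 and 15.74 without control replicate 2. From 1 to 5 h it was 1.73 ± 0.10 (adjusted p = 3.60e-09).

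Under the same limits on level and overlap, the largest fall on the log2 scale was that of Mapoly0214s0010.1. Its controls had 961 and 1307 reads (56.1 and 62.6 CPM), the 1 h libraries 4.42 and 3.38 CPM and the 5 h libraries 6 and 4 reads (0.462 and 0.251 CPM). The groups did not overlap and went down in the order of time. The log2 change at 5 h was -7.39 ± 0.46 (SE, adjusted p = 6.95e-14), a ratio of reads of 173 with a counting interval of 93.6 to 360.3. The fall from 1 to 5 h was -3.45 ± 0.47 (adjusted p = 1.92e-07).

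Mapoly0068s0042.1 lost the most CPM under those limits. It stood at 3052 and 3381 CPM in the controls, 1686 and 1703 CPM after 1 h and 1177 and 1272 CPM after 5 h. Again the 3 groups did not overlap, but the fall was modest in proportion, at a log2 of -1.39 ± 0.06 (SE, adjusted p = 1.28e-11). The fall from 1 to 5 h was -0.47 ± 0.06 (adjusted p = 1.14e-05).

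**Figure D2:**
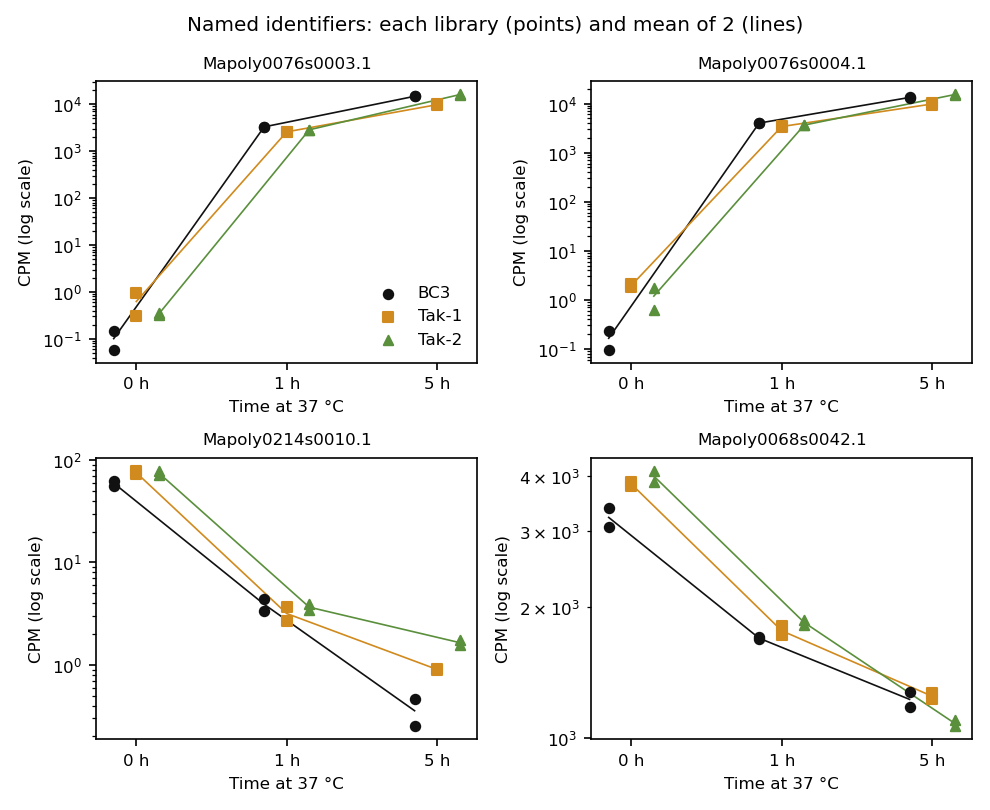
Level in CPM (log axis) of the 4 named genes in every library of BC3, Tak-1 and Tak-2 after 0, 1 and 5 h at 37 °C, with points for libraries and lines through the mean of 2. The vertical scales differ between panels, and both genes of the upper row go from at most 2.09 CPM in all controls to at least 9506 CPM in all 5 h libraries.

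The 2 genes with the largest gains in CPM are the first members of a run of 5 following identifiers, all of which rose at least 16-fold. This was the longest such run in the table, and it was singled out after its values were seen. Summed over its members the level was 2.84 CPM in the controls, 18859 CPM after 1 h and 48916 CPM after 5 h. Its share of reads was 0.000289 and 0.000352% in the controls, 1.84 and 1.80% after 1 h and 4.18 and 4.19% after 5 h. The third member stood at 5041 and 5205 CPM after 5 h, the fourth at 6942 and 7131 CPM and the fifth at 8528 and 8919 CPM, and no member had a control mean above 1.19 CPM. All 5 were higher at 5 h than at 1 h. The identifiers on either side of the run did not share these levels. The one before it went from 4.99 to 5.22 CPM (log2 0.07 ± 0.25 SE, edgeR adjusted p = 0.813) and the one after it from 10.6 to 15.8 CPM (log2 0.57 ± 0.11, adjusted p = 1.71e-04). How reads matching several copies were counted is not given in the sources used here, so the values of members are uncertain where they share sequence.

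The fourth member separated Tak-2 from the other accessions. After 5 h it stood at 6942 and 7131 CPM in BC3 and at 4075 and 3805 CPM in Tak-1, but at 71.3 and 61.3 CPM in Tak-2. After 1 h the values were 4017 and 4019 CPM in BC3, 3352 and 3308 CPM in Tak-1 and 25.6 and 24.2 CPM in Tak-2. No heated Tak-2 library came near any heated library of BC3 or Tak-1, and the other 4 members stood between 2015 and 16216 CPM in the heated Tak-2 libraries. The 5 h response was larger in BC3 than in Tak-2 by a log2 of 7.00 ± 0.71 (SE, edgeR adjusted p = 3.58e-05), but that size leans on a doubtful control. The controls had 0.934 and 1.44 CPM in BC3, 2.65 CPM in the library labelled Tak-2 control replicate 1 and 0.215 CPM in replicate 2. Without the 3 doubtful libraries the difference was 4.27 ± 0.75 (adjusted p = 0.00145).

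**Figure D3:**
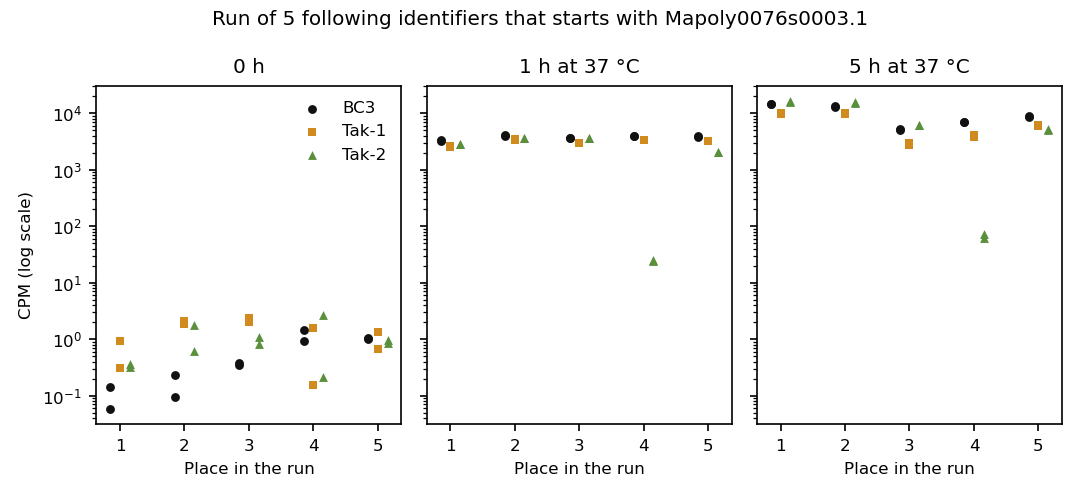
Level in CPM (log axis) of the 5 members of the run, by place in the run, in each library of BC3, Tak-1 and Tak-2 after 0, 1 and 5 h at 37 °C. In the heated panels all points lie at 2015 CPM or more except those of the fourth member in Tak-2, between 24.2 and 71.3 CPM.

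Following identifiers moved together in part elsewhere too. Over 6334 pairs of following identifiers with both tested, the log2 changes at 5 h correlated at r = 0.24 (rho = 0.16), a description across genes, which are not independent. After a gene raised at least 2-fold, the next identifier was raised as much in 25.2% of 958 cases, against 15.3% of all genes. After a gene lowered at least 2-fold it was lowered in 22.6% of 818 cases, against 13.7%. The longest run lowered at least 2-fold held 8 identifiers, and its summed level was 3751 CPM in the controls, 1350 CPM after 1 h and 1104 CPM after 5 h. The number in an identifier was read as the order, and no genome positions were used.

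The reads of BC3 became concentrated in fewer genes with time at 37 °C. The 10 genes with the most reads took 7.07 and 6.76% of reads in the controls, 7.07 and 7.06% after 1 h and 9.81 and 9.66% after 5 h. Half-way through the reads (50%) was reached with 518 and 548 genes in the controls, 437 and 441 after 1 h and 331 and 335 after 5 h. The 3 times did not overlap for this second measure. Of the 20 genes with the most reads at 5 h, 15 had been raised at least 2-fold, 11 at least 16-fold, and 17 were higher than at 1 h. These genes were picked by their level at 5 h, which favours genes that rose, so the counts are a description. Over all 10832 genes, 15.3% were raised at least 2-fold, 203 genes at least 16-fold, and 25.2% were higher than at 1 h. Of the 20 genes highest in the controls, 1 was raised and 3 were lowered at least 2-fold.

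Between 1 and 5 h the transcriptome of BC3 went on changing, with fewer changes of 2-fold or more than from control to 1 h. The median rise that passed was 0.50, against 0.74 at 1 h (log2), but the median fall was -0.58 in both steps. At least 16-fold, 32 genes rose and 22 fell from 1 to 5 h, against 122 and 9 at 1 h. From 1 to 5 h, 2734 genes were higher (25.2%) and 2686 lower (24.8%), 50.0% in all, and 544 (5.02%) and 529 (4.88%) of them by 2-fold or more. After 1 h against control, 2818 were higher (26.0%) and 2757 lower (25.5%), and 1068 (9.86%) and 664 (6.13%) of them by 2-fold or more, with 51.5% called in all. These comparisons share libraries with each other and with 5 h against control, so they stand side by side only. With library totals alone, 30.5% of the calls from 1 to 5 h and 29.2% of those at 1 h were upward, against 50.4 and 50.5%.

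Genes that heat moved in both Tak accessions gave lists set by contrasts of Tak libraries. The BC3 libraries entered them only through the shared filter, scaling and estimate of spread. At 5 h, 16.3% of genes were raised and 15.3% lowered at least 2-fold in Tak-1, and 17.2 and 15.3% in Tak-2. Of 1259 genes raised at least 2-fold in both, 1176 (93.4%) were higher and 2 lower in BC3, with a median log2 of 1.98, against 35.0% of all genes and a median of 0.00. Their median in BC3 after 1 h was 1.24. Together they took 6.18 and 6.32% of reads in the BC3 controls, 22.2 and 22.3% after 1 h and 28.3 and 28.3% after 5 h. The 124 raised at least 16-fold in both went from 0.0794 and 0.0829% to 7.12 and 7.09% and then to 10.9 and 10.9%, with 121 higher in BC3 and a median log2 of 5.76. Of 1013 genes lowered at least 2-fold in both, 934 (92.2%) were lower and 1 higher in BC3, with a median of -1.59, against 33.1% of all genes lower. The 1013 genes fell from 8.07 and 8.04% of reads to 3.97 and 3.96% and then to 2.25 and 2.31%. For each of these lists the 3 times did not overlap. The lists rest on all Tak controls, and without the 3 doubtful libraries none can be drawn for both accessions, since Tak-1 then has no control.

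**Figure D4:**
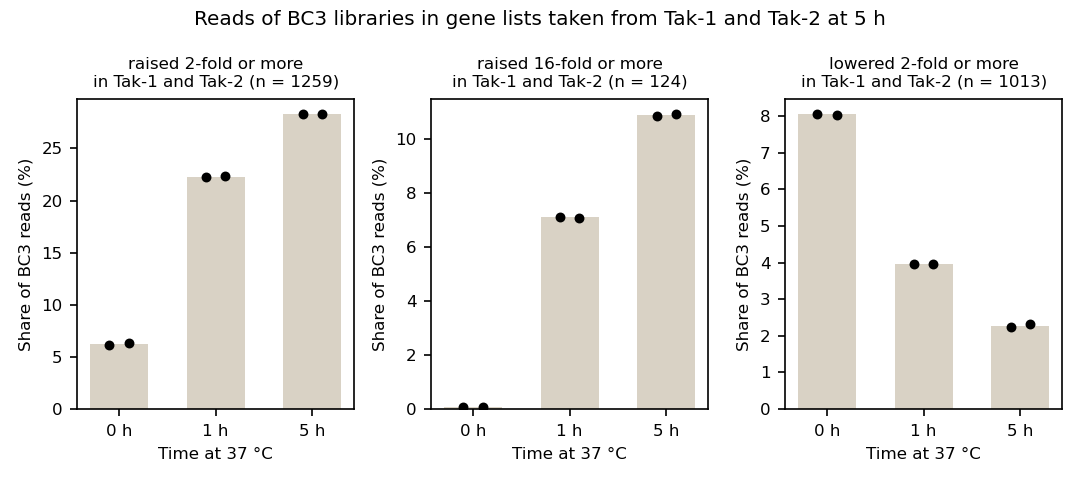
Share of reads (%) that each BC3 library gave to 3 gene lists taken from Tak-1 and Tak-2 at 5 h, after 0, 1 and 5 h at 37 °C, with points for libraries and bars for the mean of 2. The list raised at least 2-fold goes from about 6.18 to 28.3% and the list lowered at least 2-fold from about 8.07 to 2.25%, and the vertical scales differ.

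The later step compared levels of heated libraries alone, whose MapolyY reads fitted their labels, though the estimate of spread drew on all 18 libraries. From 1 to 5 h, 5.97% of genes rose and 6.99% fell at least 2-fold in Tak-1, and 7.34 and 6.26% in Tak-2. Of 403 genes higher at 5 h than at 1 h by at least 2-fold in both Tak accessions, 329 (81.6%) were higher and 1 lower in BC3, with a median log2 of 1.52, against 25.2% of all genes. Of 413 genes lower in both, 352 (85.2%) were lower in BC3, with a median of -1.22, against 24.8%. The change from 1 to 5 h differed between BC3 and Tak-1 for 771 genes (7.12%), with 453 higher (4.18%) and 318 lower (2.94%) in BC3. Between BC3 and Tak-2 it differed for 1390 (12.8%), with 875 higher (8.08%) and 515 lower (4.75%). At least 2-fold differences were found for 119 (1.10%) and 219 genes (2.02%). The counts rose to 1496 and 2086 without the 3 doubtful controls, which enter through the estimate of spread, and fell to as few as 395 and 874 when 1 library was left out. With library totals alone 28.4% of the calls against Tak-1 were higher in BC3, against 58.8%, and with upper-quartile scaling 45.9% of those against Tak-2, against 62.9%.

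Most genes that BC3 raised or lowered after 5 h moved the same way in the other accessions, which share no library with it. Of the 1652 raised at least 2-fold in BC3, 1253 were raised as much in Tak-1 (75.8% of the BC3 and 71.0% of the Tak-1 list) and 1313 in Tak-2 (79.5 and 70.5%). Of the 1479 lowered, 1018 were lowered as much in Tak-1 (68.8 and 61.3%) and 1058 in Tak-2 (71.5 and 63.7%). Over all tested genes, 16.3% were raised and 15.3% lowered at least 2-fold in Tak-1, and 17.2 and 15.3% in Tak-2. At any size and in either direction, 71.2% of genes passed in Tak-1 and 71.4% in Tak-2. Of the genes raised or lowered at least 2-fold in BC3, 67 of the raised and 83 of the lowered passed in neither.

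Differences in the size of the 5 h response were tested as an interaction. Against Tak-2, 2391 genes differed (22.1%), the response of BC3 being the higher for 1345 (12.4%) and the lower for 1046 (9.66%), and by 2-fold or more for 212 (1.96%) and 236 (2.18%). Without the 3 doubtful libraries, which leaves Tak-2 a single control assumed to vary like the other groups, these were 1395 and 1135, and 208 and 232 at least 2-fold. With upper-quartile scaling 45.8% of these calls were higher in BC3, against 56.3%. Against Tak-1, 2621 differed (24.2%), BC3 being the higher for 1362 (12.6%) and the lower for 1259 (11.6%), and by 2-fold or more for 338 (3.12%) and 214 (1.98%). With library totals alone 30.6% of the calls were higher, against 52.0%. Of the 51 genes with a response at least 16-fold higher than in Tak-1, 16 belonged to the 19 genes missing from heated Tak-1 libraries but read in its controls. Those 19 were picked for their few reads in heated Tak-1, so this overlap follows from the choice and is no result about BC3. The comparison with Tak-1 cannot be made without doubtful libraries, so accession and library cannot be told apart there. Leaving out the library Tak-1 heat 5 h replicate 2 brought the 2621 calls against Tak-1 to 1739.

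**Figure D5:**
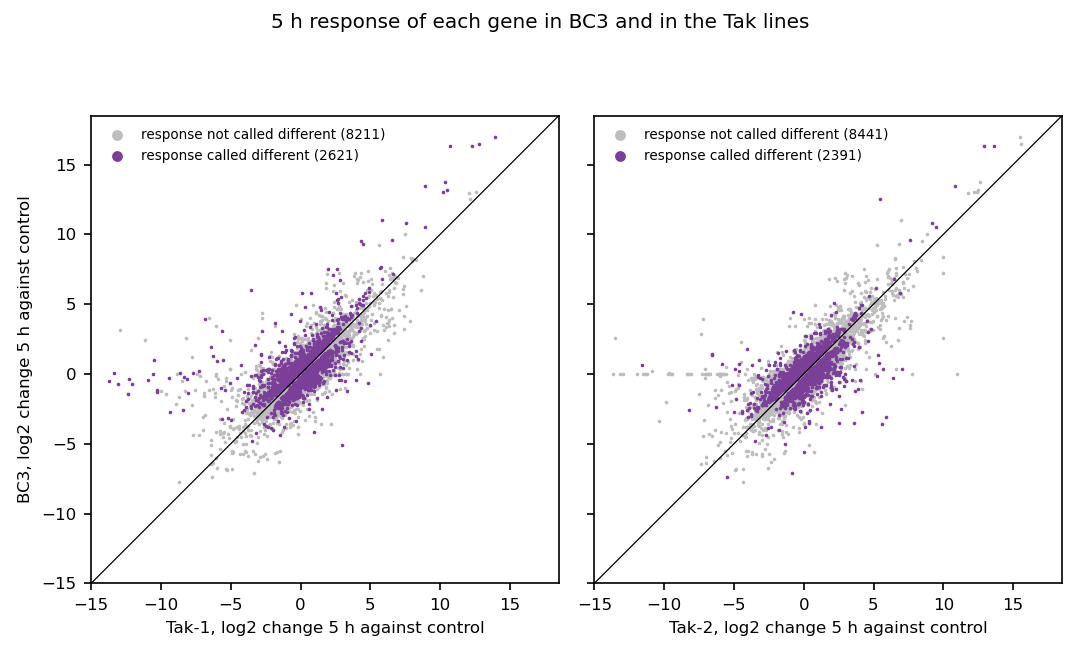
Log2 change at 5 h against control of each tested gene in BC3 (vertical) and in Tak-1 (left) or Tak-2 (right), with the line of equal change. Purple points are the 2621 and 2391 genes whose response was called different from BC3, and the left panel holds a group of genes near 0 in BC3 and strongly lowered against the libraries labelled Tak-1 control. The right panel holds MapolyY genes lowered against the libraries labelled Tak-2 control, such as MapolyY_A0041.1 at -13.7 in Tak-2 and 0 in BC3.

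The responses of the named genes were set against those of the Tak accessions 1 by 1. Mapoly0076s0003.1 had 0.306 and 0.940 CPM in the libraries labelled Tak-1 control and 9933 and 9563 CPM at 5 h, and 0.357 and 0.322 CPM and 16216 and 15698 CPM in Tak-2. At 5 h BC3 lay between the other accessions without overlap. Its response was larger in BC3 than in Tak-1 by 3.07 ± 0.78 (log2, SE, edgeR adjusted p = 1.01e-03), and the difference of 1.51 ± 0.83 from Tak-2 did not pass (adjusted p = 0.123). The size of 3.07 rests on few control reads, with 0.0584 and 0.144 CPM in BC3, and on doubtful controls in Tak-1. Mapoly0076s0004.1 had a larger response in BC3 than in Tak-1 by 4.02 ± 0.65 (adjusted p = 3.14e-05) and than in Tak-2 by 2.65 ± 0.67 (adjusted p = 0.00256). Without the 3 doubtful libraries its difference from Tak-2 was 3.22. At 5 h it stood at 10142 and 9506 CPM in Tak-1 and at 15496.5 and 15079.5 CPM in Tak-2, so BC3 lay below Tak-2. Its control levels, on which these differences rest, were 0.234 and 0.0959 CPM in BC3. They were 1.84 and 2.09 CPM in Tak-1 and 0.611 and 1.77 CPM in Tak-2.

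Mapoly0214s0010.1 stood at 0.909 and 0.894 CPM at 5 h in Tak-1 and at 1.73 and 1.56 CPM in Tak-2, above both BC3 libraries. Its fall was larger in BC3 than in Tak-2, with a difference of -1.90 ± 0.50 (log2, SE, edgeR adjusted p = 0.00200), or -1.98 (adjusted p = 0.00157) without the 3 doubtful libraries. The difference from Tak-1 was -1.02 ± 0.52 (adjusted p = 0.105). Mapoly0068s0042.1 fell less in BC3 than in Tak-2, by 0.50 ± 0.08 (adjusted p = 6.22e-04). Its difference from Tak-1, 0.23 ± 0.08, did not pass (adjusted p = 0.0585), and at 5 h its BC3 and Tak-1 libraries overlapped.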

How the data were processed

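RNA sequencing reads per identifier were deposited by the authors as whole-number counts with no normalization. The submitters' processing notes name STAR. Its version, the counting program, strandedness, the handling of reads with several matches and the genome build were stated nowhere (not given in the sources used here), so overlapping, antisense and near-identical genes could not be told apart. An unnamed last row that held the column sums was left out. No identifier matched the table of gene names.

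All 18 libraries were fitted in 1 model with 9 group means (edgeR 4.0.16 under R 4.3.3), with TMM scaling and edgeR's own filter on low counts, which left 10832 of 19755 identifiers and at least 99.96% of the reads of each library. The method was tested on simulated data. SE comes from the fitted quasi-likelihood variance and is never below that of counting error alone, while p-values come from the F test. Named were the genes with the largest rise and fall in log2 and in CPM that passed, did not overlap and had a mean of at least 5 CPM. Planned gene lists could not be applied without names. The comparison, lists and tests were chosen with earlier results of these data known, and the comparisons of the change from 1 to 5 h between accessions and the choices about doubtful libraries were added after seeing these data. DESeq2 1.42.0, other scalings and filters, a replicate block and left-out libraries were alternatives. Intervals and floors of reads cover counting error only, and p-values measure the spread between 2 libraries a group.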

Additional observations from a re-analysis of the deposited data

Results flagged for a closer look

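The size of the 5 h response differed between BC3 and Tak-1 for 2621 genes and between BC3 and Tak-2 for 2391 genes, each by a test of the difference itself. The change from 1 to 5 h differed from Tak-1 for 771 genes and from Tak-2 for 1390 genes. For named genes the differences in the 5 h response, BC3 minus the other accession on the log2 scale, were 3.07 for Mapoly0076s0003.1 against Tak-1, and 4.02 against Tak-1 and 2.65 against Tak-2 for Mapoly0076s0004.1. They were -1.90 for Mapoly0214s0010.1 and 0.50 for Mapoly0068s0042.1 against Tak-2. The sizes for Mapoly0076s0003.1 and Mapoly0076s0004.1 rest on controls of at most 2.09 CPM, and both libraries labelled Tak-1 control were doubtful. For the change from 1 to 5 h, Mapoly0214s0010.1 differed by -1.64 from Tak-1 (edgeR adjusted p = 0.0323) and by -2.30 from Tak-2 (adjusted p = 0.00115), and Mapoly0068s0042.1 by 0.30 from Tak-2 (adjusted p = 0.0277). The fourth identifier of the run that starts with Mapoly0076s0003.1 differed from Tak-2 by 7.00, or by 4.27 without the 3 doubtful libraries, since its level in the Tak-2 controls was 2.65 CPM in the doubtful replicate 1 and 0.215 CPM in replicate 2.

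Reads outside these comparisons marked 3 unheated libraries. The library labelled Tak-2 control replicate 1 held 16838 reads of MapolyY identifiers, against 17 in the other Tak-2 control. The 19 genes missing from heated Tak-1 libraries had 8873 reads in the library labelled Tak-1 control replicate 1 and 14283 in that labelled replicate 2, against 1 to 3 in each heated Tak-1 library. How these libraries came to carry those reads was not tested.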

How the results depend on the processing

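Of 225 values recomputed under alternatives, 198 stayed within the limits set for them and 27 moved. For counts of calls the limits covered the total alone, not the split into higher and lower. With library totals alone, 5 h against control stayed within them, though the share of calls that were higher went from 51.4 to 29.0% and 210 calls changed sign. Under each other alternative 0 calls for 5 h against control changed sign, and 0 of the named genes reversed. For the other comparisons direction was not compared gene by gene. Leaving out 1 library gave 6609 to 6828 calls for BC3 5 h against control, 2960 to 3068 at 2-fold or more, 4295 to 4394 for 5 h against 1 h and 4522 to 5045 for 1 h against control. The 5 h response gave 1739 to 2445 calls against Tak-1 and 1723 to 3196 against Tak-2, and the change from 1 to 5 h 395 to 538 and 874 to 1038. The share of the genes raised in both Tak accessions that were higher in BC3 was 88.1 to 94.98% over left-out libraries, 91.6% with library totals alone and 98.3% with a minimum of 5 CPM in 2 libraries. For the lowered genes it was 86.7 to 93.4%, and 97.3% with that minimum. Without the 3 Tak controls that went against their labels the change from 1 to 5 h gave 1496 calls against Tak-1 and 2086 against Tak-2. The 5 h response against Tak-1 and both Tak lists then had no value. The cause of these moves was not tested, except that a left-out library leaves fewer samples. DESeq2 gave 6921 calls for 5 h against control, the 4 libraries alone 7208, no filter 7424 and summed identifiers of a locus 7304. Same-numbered libraries did not deviate together (correlation 0.0154 between controls and 5 h), so the numbers were not taken as pairs, and a replicate block within each accession gave 7279 calls. Depth limits the folds of genes with few control reads, as for Mapoly0076s0003.1, whose 1 read in the first BC3 control was 0.0584 CPM.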
